A study of Mus musculus with 12 samples.

Results

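In P19 cells, a mouse embryonal carcinoma line, 1145 genomic regions were listed for MyoD, for NeuroD2 and for both mutants of a MyoD chimera, and were absent from the list of the chimera itself. They are called the chimera-lacking regions here. They were chosen by presence or absence in the lists alone: by pooling the intervals of the 5 deposited lists of binding sites, joining intervals that shared at least 1 base, and keeping regions with an interval of each of the other 4 lists and none of the chimera. The 5 lists gave 60136 regions in all. A further 3515 regions were held by all 5 lists and serve as the nearest comparison.

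Chromatin immunoprecipitation with sequencing was done in 12 libraries, 2 for each of 6 groups. Cells were transduced with MyoD, with NeuroD2, with the MD(ND2bHLH) chimera (MyoD carrying the basic helix-loop-helix, or bHLH, domain of NeuroD2), with its MD(ND2bHLH)WC mutant or with its MD(ND2bHLH)WCS mutant, and a last group had no transduction. The mutants are called WC and WCS, and the labels do not say what these letters stand for. All groups were P19 cells in the same sequence of media, and every factor was introduced by transduction. Whether the antibodies also precipitated protein made by the cells themselves was not tested. MyoD and NeuroD2 are called native factors here only to set them apart from the chimeric proteins. MyoD antibodies 6196 and 6975 precipitated MyoD and all 3 chimeric proteins, NeuroD2 antibodies 1165 and 1240 precipitated NeuroD2, and antibodies 1240 and 6975 were used on untransduced cells. Where NeuroD2 is set against the other lists, protein and antibody therefore cannot be told apart. Each transduced group has 1 list for its 2 libraries, so there is no spread between replicates. A background list from untransduced cells is not analysed here.

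MyoD directs skeletal muscle differentiation and NeuroD2 directs neuronal differentiation. Both belong to the bHLH family, whose members pair with E proteins and contact short DNA elements called E-boxes through the basic part of the domain. The helices hold the dimer together, and the parts of the protein outside the bHLH domain contact other proteins. MyoD and NeuroD2 are known to favour E-boxes with different central bases. The study asks, by its title, whether the choice of binding sites sets the lineage, and the chimera-lacking regions are places listed for both native factors and for both mutants while the unmutated chimera is not listed there.

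The lists held 24935 (MyoD), 31458 (NeuroD2), 14375 (chimera), 27045 (WC) and 22462 (WCS) intervals. Each interval carries 1 value from the authors, whose size and limits are those of −log10 p, with a minimum between 5.002 and 5.038 in every list. Read depth is unknown. Values of different lists are compared here only as percentiles, where 0 is the lowest and 100 the highest value of a list. The MyoD and chimera lists hold no interval on chromosome X and none shorter than 125 bases (MyoD) or 200 bases (chimera). The NeuroD2, WC and WCS lists hold 570, 403 and 362 intervals on X, and their shortest intervals have 53, 54 and 54 bases. The part of this difference between sets of lists in the results was not tested.

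The chimera-lacking regions made up 24.6% of the 4660 regions of MyoD, NeuroD2, WC and WCS (95% exact Clopper-Pearson interval 23.3 to 25.8%, counting error only), and the chimera held the rest. Over all merged regions, 76.3% had no chimera interval. The rule used this presence and absence, so these shares and the values that follow are descriptions and carry no test. The same count for the other lists places this number. MyoD was the missing list in 2599 regions, 42.5% of those held by the other 4. NeuroD2 was missing in 507 (12.6%), WCS in 307 (8.03%) and WC in 112 (3.09%). The chimera was thus the most frequent single absentee after MyoD. That place depended on list length. With every list shortened by value to the 14375 intervals of the chimera, the chimera was missing in 11.9%, NeuroD2 in 22.2% and MyoD in 54.5%.

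Chimera absence became rarer as more of the other lists held a region. It was 89.4% in regions of 1 other list, 79.5% with 2, 70.3% with 3 and 24.6% with all 4. Among regions of exactly 3 other lists, the share without the chimera was 74.5% for NeuroD2, WC and WCS without MyoD (7602 of 10201 regions). It was 39.0% for MyoD, WC and WCS (324 of 831), 46.7% for MyoD, NeuroD2 and WC (269 of 576) and 59.0% for MyoD, NeuroD2 and WCS (161 of 273). The 3 combinations with MyoD all had lower shares than the 1 without it. Only the latter can lie on chromosome X, where the chimera list has no interval.

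In the MyoD list the chimera-lacking regions ranked in the middle. Their MyoD values ran from 5.002 to 140.2 with a median of 9.97 (quartiles 6.94 and 17.2), and the median percentile was 46.3. Regions of all 5 lists had a median MyoD value of 20.9 and a median percentile of 76.0. Regions listed for MyoD alone, 13371 in number, had a median of 8.79 at percentile 39.4. The MyoD values of the chimera-lacking regions therefore lay nearer to those of MyoD-alone regions than to those of the regions held throughout. In the top 10% of the MyoD list, above percentile 90, lay 59 chimera-lacking regions (5.15%), against 27.9% of the regions of all 5 lists.

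In the NeuroD2 list the chimera-lacking regions ranked above the middle. Their NeuroD2 values ran from 5.026 to 185.7 with a median of 13.6 (quartiles 8.49 and 25.4), at a median percentile of 61.1. This was the highest median of the 4 lists, but with lists of equal length it was 56.3, against 58.4 for WCS. Regions of all 5 lists had a median of 20.3 at percentile 75.04. Regions listed for NeuroD2 alone had a median of only 7.48 at percentile 30.6, and the 594 regions of MyoD and NeuroD2 without any chimeric protein also had 7.48. In the NeuroD2 list, 143 chimera-lacking regions (12.5%) were in the top 10%, against 25.9% of the regions of all 5 lists.

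Both mutants ranked these regions a little above the middle of their full lists. WC values ran from 5.038 to 92.3 with a median of 12.2 (quartiles 8.43 and 18.9), at percentile 56.6. WCS values ran from 5.025 to 99.6 with a median of 11.5 (quartiles 7.72 and 17.7), at percentile 57.2. The regions of all 5 lists stood at percentile 81.1 in the WC list and 77.9 in the WCS list. Only 48 chimera-lacking regions (4.19%) were in the top 10% of WC and 54 (4.72%) in that of WCS, against 32.5% and 27.7% of the regions held throughout. The WC rank depended on list length. With lists of equal length the median percentile of the chimera-lacking regions was 48.5 for WC and 58.4 for WCS. With the 50% of each list of highest values it was 51.4 and 55.2.

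**Figure D1:**
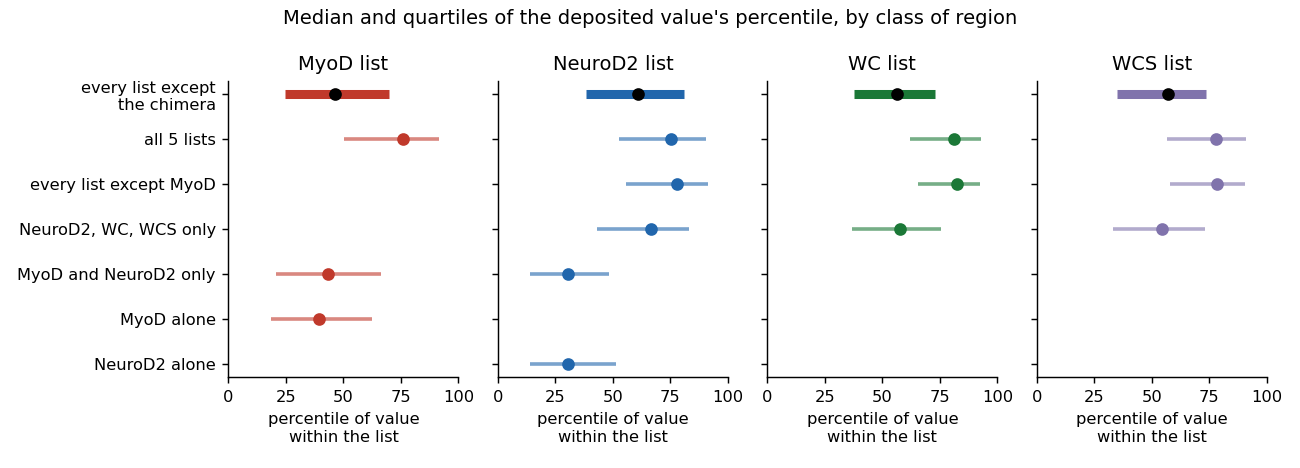
Median (dot) and quartiles (bar) of the percentile of the deposited value within each of 4 lists, for 7 classes of merged regions named on the vertical axis; a class has a bar only in lists that hold it. The chimera-lacking regions, in the top row, have medians of 46.3, 61.1, 56.6 and 57.2, below those of the regions of all 5 lists in each panel.

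In the lists of NeuroD2, WC and WCS, the chimera-lacking regions ranked close to regions of those lists only, which lack both MyoD and the chimera. These 7602 regions of NeuroD2, WC and WCS only had median values of 15.6, 12.4 and 11.0 in those lists, at percentiles 66.4, 57.5 and 54.6. The 324 regions of MyoD, WC and WCS only, which also lack the chimera, stood lower, at percentiles 27.2 (WC) and 34.5 (WCS). The regions of every list except MyoD, which the chimera does hold, stood much higher, with medians of 22.5, 27.2 and 21.0 at percentiles 78.0, 82.6 and 78.3. Chimera intervals in those regions had a median value of 9.12, at percentile 47.8 of the chimera list. In regions of all 5 lists the chimera's median was 15.9 at percentile 74.1. Regions with a chimera interval thus had higher WC values than regions without one, both where MyoD was listed and where it was not.

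The gap in rank to the regions of all 5 lists was wide in the MyoD and WC lists and narrowest in the NeuroD2 list. The median percentile of the chimera-lacking regions differed from that of the regions of all 5 lists by −29.8 points for MyoD, −24.5 for WC, −20.7 for WCS and −14.0 for NeuroD2. For pairs made of 1 region of each class, the region of all 5 lists had the higher percentile in 74.6% of pairs for WC, 71.8% for MyoD, 70.8% for WCS and 62.5% for NeuroD2. Both measures put NeuroD2 last, while MyoD and WC changed places. They also did so with lists cut by value, where the gap was −28.5 points for MyoD and −29.2 for WC at equal length, and −29.3 and −29.9 in the 50% of highest values. All 4 lists placed a chimera-lacking region above percentile 50 in 213 cases (18.6%), against 1743 regions of all 5 lists (49.6%). None of the 4 did so in 110 cases (9.61%), against 55 (1.56%).

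Ordered by their value in any of the 4 lists, weaker regions lacked the chimera more often. The 4660 regions were divided into 5 bins of nearly equal size by percentile, separately for each list. From the lowest to the highest bin, the share without a chimera interval went from 44.4% to 5.28% by MyoD percentile and from 44.8% to 2.15% by WC percentile. By WCS percentile it went from 41.7% to 4.84%, and by NeuroD2 percentile from 35.7% to 12.8%. For NeuroD2 the intervals, which cover counting error only, were 32.7 to 38.9% in the lowest bin and 10.7 to 15.1% in the highest. A high NeuroD2 value went with the chimera less closely than a high WC value did. Of the 928 regions in the highest NeuroD2 bin, 119 lacked the chimera, and of the 931 in the highest WC bin, 20 did. WC and the chimera share their antibodies and NeuroD2 has others, so protein and antibody cannot be told apart here.

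**Figure D2:**
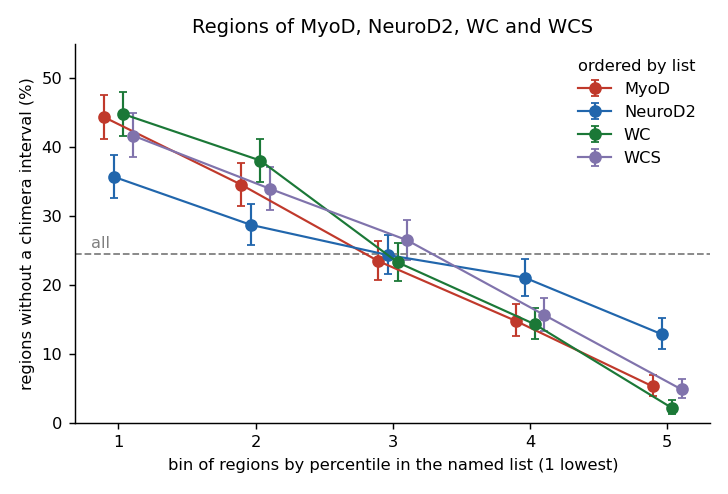
Share of the regions of MyoD, NeuroD2, WC and WCS that have no chimera interval (vertical axis, percent), by bin of percentile in the list named by colour; bars are 95% Clopper-Pearson intervals and the dashed line is the share over all 4660 regions. All 4 lines fall from bin 1 to bin 5, and the NeuroD2 line is the flattest, from 35.7% to 12.8%.

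The chimera's own values went the same way where it was listed. In regions of all 5 lists, its median value was 9.54 in the lowest WC bin and 33.5 in the highest. By MyoD bin it was 10.3 in the lowest and 30.2 in the highest, and by NeuroD2 bin 11.8 and 24.9. Where the chimera was absent most often, the median of its listed values was therefore lowest. Single chimera values in regions of all 5 lists went down to 5.035, the minimum of its list. No lower value is listed, so the medians cannot show how far absent regions lay from that limit. In the lowest bins these medians stood at percentile 50.3 (by WC), 55.1 (by MyoD) and 61.9 (by NeuroD2) of the chimera list.

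MyoD and WC ranks combined separated the regions further. In the lowest bin of both, 158 of 244 regions (64.8%, 58.4 to 70.7%) lacked the chimera. In the highest bin of both, 1 of 314 did (0.318%, 0.00806 to 1.76%). A low MyoD and a high WC bin gave 9 of 124 regions (7.26%), and a high MyoD and a low WC bin gave 19 of 122 (15.6%). Within each WC bin the share was lower in the highest MyoD bin than in the lowest.

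NeuroD2 rank behaved otherwise once WC rank was held. In the lowest WC bin, the share without the chimera was 43.7% (39.1 to 48.3%) of the 465 regions in the lowest NeuroD2 bin and 65.5% (51.4 to 77.8%) of the 55 regions in bin 4. The highest NeuroD2 bin held only 11 such regions, 7 of them without the chimera. In WC bin 2, 16 of 22 regions of the highest NeuroD2 bin lacked it (72.7%, 49.8 to 89.3%), against 95 of 244 in the lowest (38.9%, 32.8 to 45.4%). In the highest WC bin the shares were low in every NeuroD2 bin, between 0% (0 of 39, exact upper bound 9.03%) and 5.13% (2 of 39). The share without the chimera was thus highest in the cells of 55, 22 and 11 regions, where NeuroD2 rank lay furthest above WC rank. With a smaller lead of NeuroD2 it was 49.6% (68 of 137, NeuroD2 bin 3, WC bin 1) and 41.1% (58 of 141, bins 4 and 2). It was also 41.1% (39 of 95) in NeuroD2 bin 5 and WC bin 3, beside 43.7% where both ranks were lowest.

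**Figure D3:**
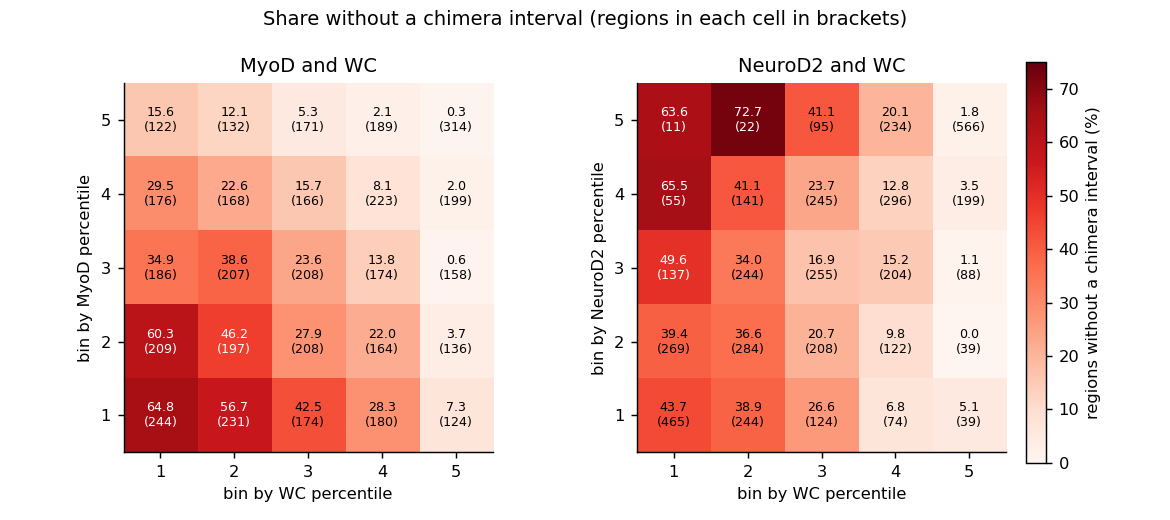
Share of regions without a chimera interval (colour and upper number, percent; regions in brackets) by bin of WC percentile (horizontal) and bin of MyoD (left) or NeuroD2 (right) percentile (vertical), over the 4660 regions of MyoD, NeuroD2, WC and WCS. On the left the shares are highest at bottom left, 64.8%, whereas on the right they are highest at top left, where cells hold few regions.

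A MyoD interval went with chimera presence at every level of WC. Among regions of NeuroD2, WC and WCS, 24.6% lacked the chimera where MyoD was listed and 74.5% where it was not. Of the 7602 regions behind the 74.5%, 7417 lay on chromosomes that hold a chimera interval. On chromosome X, which has none, chimera absence was fixed, and the shares without MyoD include it. In the lowest range of WC percentile, 0 to 20, the shares were 50.4% (43.8 to 57.1%) with MyoD and 91.7% (89.6 to 93.4%) without. In the highest, 80 to 100, the shares were 8.77% (7.57 to 10.1%) with MyoD and 1414 of 2828 regions (48.1 to 51.9%) without. The 3 ranges between gave 42.3%, 42.1% and 28.0% with MyoD, against 90.5%, 86.6% and 76.0% without. Ranges of NeuroD2 percentile gave the same order, from 39.1% against 84.1% in the lowest to 16.5% against 65.3% in the highest. MyoD and the chimera are also the lists without chromosome X and short intervals, so the protein and the set of lists cannot be told apart in this comparison.

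**Figure D4:**
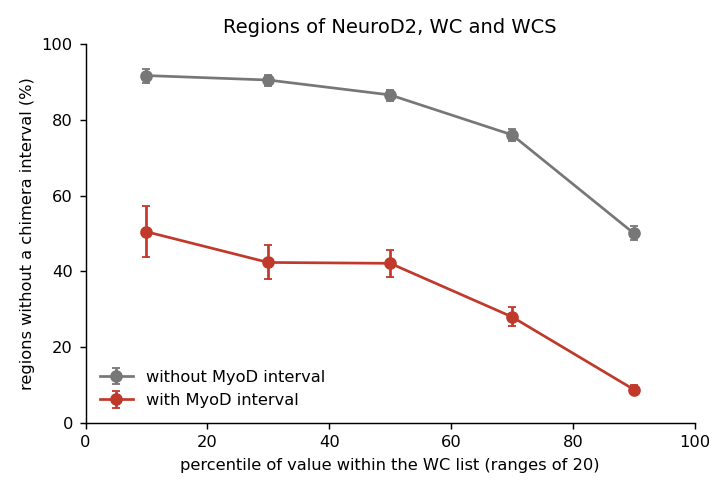
Share of regions of NeuroD2, WC and WCS without a chimera interval (vertical axis, percent) by range of WC percentile (horizontal axis), where a MyoD interval is present (red) or absent (grey); bars are 95% Clopper-Pearson intervals. The red points lie below the grey ones in all 5 ranges, from 50.4% against 91.7% in the lowest to 8.77%, against 1414 of 2828, in the highest.

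Within the chimera-lacking regions, MyoD rank did not go with the rank in the other lists. Across the 1145 regions, which are not replicates, the percentiles of MyoD and NeuroD2 had a Pearson r of 0.015 and a Spearman rho of 0.0075. MyoD and WC had 0.019 and 0.018, and MyoD and WCS 0.054 and 0.051. NeuroD2 and WC had 0.49 and 0.52, NeuroD2 and WCS 0.41 and 0.43, and WC and WCS 0.69 and 0.73. The ranks of both mutants thus went with those of NeuroD2 and not with those of MyoD. The NeuroD2, WC and WCS lists, unlike the MyoD list, also hold chromosome X and short intervals, so the protein and the set of lists cannot be told apart here. In the regions of all 5 lists, rho was also low for MyoD with NeuroD2 (0.071), WC (0.12) and WCS (0.079), and higher for NeuroD2 with WC (0.67) and WCS (0.68) and for WC with WCS (0.79). There the chimera, which has no value in the chimera-lacking regions, had a rho of 0.41 with MyoD, 0.29 with NeuroD2, 0.51 with WC and 0.39 with WCS. The points of a list share its library pair and its depth.

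**Figure D5:**
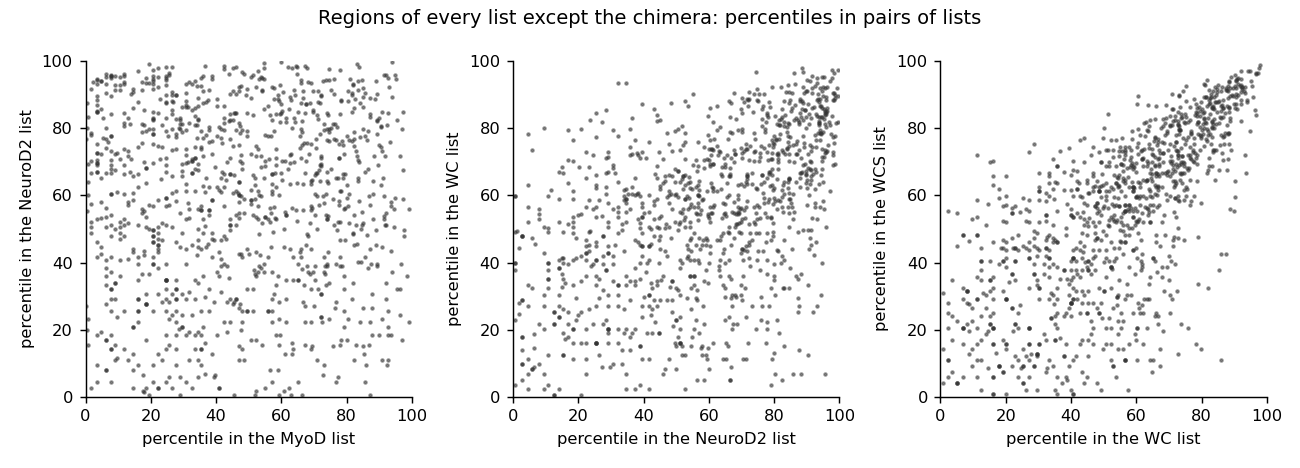
Percentile of the deposited value of each of the 1145 chimera-lacking regions (1 point each) in 3 pairs of lists: MyoD and NeuroD2, NeuroD2 and WC, WC and WCS. The first panel shows an even cloud (rho 0.0075), and the points draw together along the diagonal in the panels of NeuroD2 and WC (0.52) and of WC and WCS (0.73).

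NeuroD2 outranked MyoD in 710 of the chimera-lacking regions (62.0%), whereas over all 6355 regions of both it did so in 47.1%, and over the regions of all 5 lists in 49.1%. The median difference, MyoD minus NeuroD2 percentile, was −10.2 points (quartiles −38.8 and 15.0), against 0.70 in the regions of all 5 lists. Of the 4 lists, NeuroD2 gave the highest percentile in 430 chimera-lacking regions (37.6%) and MyoD the lowest in 507 (44.3%). In the regions of all 5 lists NeuroD2 was highest in 20.3% and MyoD lowest in 40.3%. The mutants did not part from each other: WCS outranked WC in 589 regions (51.4%), beside 48.7% of all regions of both, with a median difference of 0.66 points (quartiles −9.79 and 10.9).

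A few chimera-lacking regions stood high in all 4 lists. In 11 of them the lowest of the 4 percentiles was above 80, against 542 such regions with a chimera interval, so 1.99% of these strong regions lacked it (0.997 to 3.53%). The 542 had a median chimera value of 34.7, but their lowest was 5.13. The 6 that led, by the lowest of their 4 percentiles, are given with coordinates in mm9, counted from 1. First was chr14:61064732-61065305, with values of 62.6 for MyoD, 59.2 for NeuroD2, 61.9 for WC and 43.0 for WCS. It was at percentile 92.5 or above in every one of these lists, and the nearest chimera interval lay 38695 bases away.

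The region chr15:96434586-96435250 had the highest NeuroD2 value of all chimera-lacking regions, 185.7, beside 55.1 for MyoD, 39.2 for WC and 41.6 for WCS. After it came chr18:6394829-6395408, with 33.5 for MyoD, 37.7 for NeuroD2, 46.6 for WC and 52.8 for WCS. In its window of 100 kb, which is not centred on the region, there was no chimera interval, and 3 each of MyoD and NeuroD2. The nearest chimera interval lay 94441 bases away. At chr9:61398874-61399576 the values were 30.3 for MyoD, 32.9 for NeuroD2, 71.8 for WC and 28.1 for WCS. Only 112 bases of it were common to all 4 lists, the fewest among these 6. Next came chr10:115211470-115211940, with 29.7, 56.0, 28.1 and 29.7 in the same order of lists. Last of the 6, chr6:127727131-127727730 had 37.5, 55.5, 32.8 and 25.6, and a chimera interval lay 3742 bases away in a window of 100 kb that held 7 of them.

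Apart from that NeuroD2 value, the highest and lowest values of single lists belonged to other regions. The highest MyoD value, 140.2 at percentile 99.3, belonged to chr12:112258926-112259747, where NeuroD2 had 6.55, at percentile 22.2, WC 12.2 and WCS 17.4. The region chr7:69606883-69607515 had the highest value of both mutants, 92.3 for WC and 99.6 for WCS, with 26.9 for MyoD and 37.0 for NeuroD2. No chimera interval lay in its window of 100 kb, but the window is not centred on the region, and the nearest lay 41908 bases away. The lowest MyoD value, 5.002, was shared by 2 regions, of which chr10:79589932-79590452 is the wider, and there WC had 26.2 and WCS 19.5. The lowest WC value, 5.038, was shared by 3 regions, and at the widest, chr13:20446432-20446922, NeuroD2 had 5.84 and WCS 5.18, and only 37 bases were common to the 4 lists. The lowest WCS value, 5.025, was shared by 6 regions, the widest being chr12:12183003-12183873, with 9.97 for MyoD and 13.7 for NeuroD2.

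Some regions were near the top of one native factor's list and near the bottom of the other's. The largest lead of MyoD, 86.8 percentile points, was at chr7:146325595-146326366, with 33.6 for MyoD and 5.026 for NeuroD2, the lowest NeuroD2 value of the class, shared by 8 regions. It was followed by chr7:50610555-50610946, with 47.5 for MyoD, 5.56 for NeuroD2, 5.58 for WC and 6.05 for WCS, and by chr5:36720090-36721364, with 49.7 for MyoD and 5.64 for NeuroD2. The mutants were low with NeuroD2 at the former and at percentiles 59.8 (WC) and 67.0 (WCS) at the latter. The largest lead of NeuroD2, 91.3 points, was at chr18:35998817-36000360, with 53.4 for NeuroD2, 5.27 for MyoD, 25.9 for WC and 34.7 for WCS. Close behind were chr12:100549488-100549931, with 58.0 for NeuroD2 and 5.30 for MyoD, and chr1:128758311-128758941, with 57.1 and 5.30. In these 3 regions WC was at percentiles 81.5, 67.8 and 66.1.

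The 4 intervals of a chimera-lacking region mostly coincided far beyond the 1 base that the rule requires. The regions were 274 to 2591 bases wide with a median of 474 (quartiles 413 and 590), against a median of 635 for the regions of all 5 lists. Single intervals had median widths of 352 bases for MyoD, 371 for NeuroD2, 368 for WC and 350 for WCS, against 411, 415, 447 and 414 in the regions of all 5 lists, where chimera intervals had 503. The bases common to all 4 lists numbered 261 at the median (quartiles 219 and 305), and in 1109 regions (96.9%) there were at least 100. In 22 regions (1.92%) no base was common to all 4, so the region was joined by a chain of overlaps. More than 1 interval of some list lay in 42 regions (3.67%), against 9.05% of the regions of all 5 lists and 1.38% of all merged regions.

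The centres of the 4 intervals mostly lay close together. In the 1103 regions with exactly 1 interval per list, the centres of WC and WCS lay 20 bases apart at the median, and those of NeuroD2 lay 32 from WC and 30.5 from WCS. MyoD centres lay 35.5 bases from NeuroD2, 41.5 from WC and 41 from WCS. Centres were within 100 bases of each other in 97.4% of regions for WC and WCS, in 95.01% for NeuroD2 and WC and in 82.0% for MyoD and WC. The WC centre was nearer to that of NeuroD2 in 661 regions (59.9%) and nearer to that of MyoD in 435, and WCS gave 662 and 436. In the regions of all 5 lists, the NeuroD2 centre was likewise the nearer in 61.7% for WC and 62.1% for WCS. The regions of all 5 lists had nearly the same medians, 20 bases for WC and WCS, 31 for NeuroD2 and WC and 42.5 for MyoD and WC.

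Few chimera-lacking regions lay next to a chimera interval. The nearest chimera interval lay 27392 bases away at the median (quartiles 7450 and 63783), within 100 bases for 6 regions, within 500 for 39 and within 1000 for 74 (6.46%). Of all regions without a chimera interval, 5.00% had one within 1000 bases. The 4 closest lay 11 bases (chr11:117387853-117388284), 28 bases (chr5:111659965-111660628), 48 bases (chr4:107502041-107502692) and 74 bases (chr12:114266206-114266857) from it. Their MyoD values were 5.69, 6.30, 10.3 and 22.5, and their NeuroD2 values 7.86, 53.4, 48.6 and 83.5.

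On the other side of the threshold, no region of all 5 lists had its chimera interval by a thin overlap. The least overlap with the other lists was 237 bases, at chr19:57882819-57883259, followed by 240 at chr5:60452402-60452936, chr5:110180280-110180686 and chr2:105639947-105640313. The median was 458 bases. The chimera values there were 5.23, 5.23, 5.22 and 5.77, close to the minimum of its list. At chr5:60452402-60452936 WC had 53.4 and WCS 54.0, so a chimera value near the minimum occurred beside high values of both mutants.

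The chimera-lacking regions were counted by autosome, beside the regions of the other 4 lists. All 19 autosomes held chimera-lacking regions, from 25 on chromosome 19 to 96 on chromosome 2. The share of regions without the chimera ran from 18.2% on chromosome 19 (12.2 to 25.7%) to 29.6% on chromosome 12 (23.2 to 36.7%). The interval of every autosome included the 24.6% of the whole, but such wide intervals cannot show that the shares are equal. Chromosome X could hold none, since the MyoD list has no interval there.

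The regions were scattered, with a median of 306911 bases to the next of their kind and 96950 bases to the nearest region of all 5 lists. Only 53 (4.63%) had another within 10 kb, and 137 (12.0%) had a region of all 5 lists within that distance. Of the windows of 1 Mb that held any, 479 held 1 and 195 held 2. The most were 7, in chr2:166000001-167000000, which also held 8 regions of all 5 lists, and the adjacent window, chr2:167000001-168000000, held 5 and 6. The window chr6:34000001-35000000 held 6 chimera-lacking regions and no region of all 5 lists. Another 8 windows also held 5.

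Windows of 100 kb with 10 or more intervals of any list held 119 chimera-lacking regions (10.4%) and 13.7% of the regions of all 5 lists. The widest chimera-lacking region, chr8:19971822-19974412, with 2591 bases, lay in such a window, with 74 NeuroD2, 3 MyoD and 7 chimera intervals. Its values were 12.6 for MyoD, 37.4 for NeuroD2, 73.9 for WC and 63.0 for WCS. Whether reads map uniquely there was not tested. The next widest, chr6:72203976-72205652, with 1677 bases, held 2 intervals each of NeuroD2 and WCS, and its MyoD value was 5.30.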

How the data were processed

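Binding sites of 5 transduced groups of P19 cells were analysed, from 1 deposited list per group. The submitters' processing notes name BWA 0.7.5, CASAVA 1.8.2 and the build mm9. How peaks were called and filtered, and whether libraries were pooled, is not given in the sources used. The values the authors deposited are taken here to be −log10 p, a unit no header names: all exceed 5, the highest finite value is 312.2 and larger ones are given as infinite. They were used only to rank intervals within a list. Depth is unknown, and exact Clopper-Pearson intervals at 95% cover counting error over regions that are not independent.

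Regions were built as the opening of the report describes. Where a list had more than 1 interval in a region, the highest value was taken. The percentile is the mid-rank of the value in its list. No test was made, since 1 list stands for each group and the same lists chose the regions. The regions, comparisons and naming rule were chosen with earlier results of these data known.

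The regions named are the 6 with the highest lowest-percentile over the 4 lists, the highest and lowest of each list, the 3 largest differences between MyoD and NeuroD2 in each direction, the 4 nearest to the threshold on either side, the 2 widest, and the leading windows and chromosomes. The planned results on motifs, genes and annotation were not run, because no genome or annotation of mm9 was used here. No sequence is therefore shown. The functions were tested on simulated data. The tools were Python 3.11.15 with pandas 2.3.3, numpy 2.4.6, matplotlib 3.10.9 and scipy 1.17.1.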

Additional observations from a re-analysis of the deposited data

How the results depend on the processing

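Each of 11 results was recomputed under 8 settings, and 75 of the 88 values stayed within the 95% interval of the main value, or within 1.5 times the main count. No difference changed sign. Requiring an overlap of 50% of the shorter interval, 19 autosomes only, at least 1 base common to all 4 lists, or the removal of dense windows of 100 kb left all 11 results so. The autosome setting could not change which regions were counted, since the MyoD list has no interval on chromosome X. It could alter only the percentiles. Most of the values that moved came from the settings that cut the lists by value. With the 50% of each list of highest values the number of regions was 488, the median percentile 51.4 in the WC list and 55.2 in the WCS list, the difference from regions of all 5 lists −29.9 points for WC, and the median width 530.5 bases. With lists of equal length the number was 255, the share without a chimera interval 11.9%, the median percentile 56.3 for NeuroD2 and 48.5 for WC, the difference for WC −29.2 points, and the width 521 bases. Counting a chimera interval within 1000 bases as present gave a share of 22.98%, and joining intervals within 500 bases a width of 525 bases.

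Missing shares of the other lists were recomputed under 2 settings chosen after seeing the data. With equal length, 54.5% of regions of the other 4 lists were missing from MyoD, 22.2% from NeuroD2, 3.77% from WC and 4.64% from WCS. With the 50% of highest values, 47.1% were missing from MyoD and 15.2% from NeuroD2. The chimera was therefore missing less often than NeuroD2 with equal length. No paired analysis was possible because each group has 1 list for its 2 libraries and no result comes from a test.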
